A study of Mus musculus with 8 samples.

Results

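Timm8a1, Timm8b, Timm9, Timm10, Timm10b and Timm13 encode the small TIM chaperones, and Timm22 encodes the channel of the translocase that inserts carrier proteins into the mitochondrial inner membrane. These 7 genes were chosen by name from the 14012 genes of the table, after their differences between knockout and control muscle had been seen, so those differences are given as a description, with no p-value. RNA was sequenced from the quadriceps femoris (QF), a large thigh muscle, of 4 mice labelled KO (Grpel1 smk -/-, spelled skm in the paper) and 4 labelled WT (Grpel1 flox/flox), with 1 library per mouse. GRPEL1 is the nucleotide exchange factor of mitochondrial HSP70, the motor that pulls proteins into the matrix. All 8 mice carried the floxed Grpel1 allele. In the knockouts the HSA-Cre-ERT2 transgene, driven by the human skeletal α-actin promoter, was active in muscle fibres, so the other cells of the tissue kept the gene. Tamoxifen was started at 5 weeks of age and given on 5 days, and the knockout mice reached the end point within 5 weeks of induction. The line came from stem cells injected into C57BL/6NCrl blastocysts, and neither the strain nor the age at sampling is given per library. The floxed littermates are called untreated in the paper where body weight is compared, but floxed mice given tamoxifen were also weighed, and which kind gave the control libraries is not stated. In that comparison the floxed mice without tamoxifen carried Cre, and those given tamoxifen did not. The labels give the treatment of both groups as none, which does not settle the point. Tamoxifen or the Cre transgene may thus have differed between the groups, and an effect of either cannot be told apart from that of the deletion.

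The small TIM proteins escort hydrophobic proteins through the watery space between the outer and inner mitochondrial membranes. TIM9 and TIM10 form a ring that takes carrier proteins, such as the ADP/ATP carrier, to the TIM22 translocase, while TIM8 and TIM13 form a similar ring for another set of clients. TIM10B sits on the translocase and docks the TIM9-TIM10 ring there. The small TIM proteins themselves enter through the disulfide relay of MIA40 (gene Chchd4) and ALR (gene Gfer), and they are held in shape by disulfide bonds within a twin CX3C motif, a pair of cysteines 3 residues apart that occurs at both ends of a short loop. This import route does not use the HSP70 motor that GRPEL1 serves.

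The twin CX3C motif was looked for in the coding sequences, because it is what the 6 small TIM genes share and what sets them apart from Timm22. It was present in each of the 6 small TIM genes and not in Timm22, whose 194 codons held 0 CX3C motifs. Of 21760 protein-coding genes, 666 (3.06%) held a pair of CX3C motifs with 10 to 30 codons between them, and among those of at most 150 codons it was 99 of 2090 (4.74%). The stretch from the first to the last cysteine codon is shown for each gene, 5′ to 3′ on the coding strand, with the 4 cysteine codons in capitals.
Timm9: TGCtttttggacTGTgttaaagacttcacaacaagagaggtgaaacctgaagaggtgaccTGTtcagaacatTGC
Timm10: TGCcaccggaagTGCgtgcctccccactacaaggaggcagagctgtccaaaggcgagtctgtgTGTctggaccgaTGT
Timm10b: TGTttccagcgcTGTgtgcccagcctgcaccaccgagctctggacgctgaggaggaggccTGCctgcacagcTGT
Timm8a1: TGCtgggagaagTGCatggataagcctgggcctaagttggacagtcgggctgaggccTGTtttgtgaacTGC
Timm8b: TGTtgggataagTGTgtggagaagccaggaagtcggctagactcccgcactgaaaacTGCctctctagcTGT
Timm13: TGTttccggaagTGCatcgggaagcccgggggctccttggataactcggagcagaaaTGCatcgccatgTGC
The loop between the inner cysteines spanned 14 codons in Timm8a1, Timm8b and Timm13, 15 in Timm9 and Timm10b, and 16 in Timm10. The genes of equal spacing could be aligned without gaps. Timm8a1 and Timm8b had 43 of 72 bases in common (59.7%), Timm8a1 and Timm13 had 39 of 72 (54.2%), Timm8b and Timm13 had 36 of 72, and Timm9 and Timm10b had 35 of 75 (46.7%). Every stretch was chosen by its 4 cysteine codons, so part of each match was set in advance. The share expected of unrelated stretches was not measured. On GRCm38 the stretch lay at chr12:71123666-71125515 (minus strand), at chr2:84829803-84829880 (plus strand) and at chr7:105640804-105641048 (plus strand) for the genes of the TIM9-TIM10 group. It lay at chrX:134538202-134541462 (minus strand), at chr9:50604954-50605025 (plus strand) and at chr10:80900242-80900535 (minus strand) for the TIM8-TIM13 group. In Timm8b and Timm10 the whole stretch was in 1 coding exon, whereas in the other four an intron interrupted it.

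Total counts were 16017565 to 18813042 in controls and 16424608 to 20361144 in knockouts. Values are CPM, counts relative to library size, with the sizes scaled by TMM, a factor for the composition of the RNA, which ran from 0.75 to 0.84 in controls and from 1.19 to 1.33 in knockouts. The choice of scale matters here, since on library totals alone the median over all genes of the log2 fold change moved from 0.065 to 0.73. Grpel1 itself had 861 to 1087 counts in controls and 1461 to 1658 in knockouts, a log2 fold change of -0.066, so its whole-gene count does not check the labels. The 6 skeletal muscle fibre markers (Ckm, Acta1, Mylpf, Tnnt3, Pvalb and Myh4) were present in every library, and all 6 were lower in knockouts, with a summed level of 188764 to 250057 CPM in controls and 53827 to 75016 CPM in knockouts. The list holds no gene particular to slow fibres, so its sum does not measure the fibre content as a whole. The summed level of 5 macrophage markers was 19.8 to 51.2 CPM against 49.3 to 84.9 CPM, with 1 of 5 higher, and that of 4 satellite cell markers 8.08 to 12.4 CPM against 17.5 to 22.3 CPM, with 2 of 4 higher. The summed level of 5 fibroblast markers was 1292 to 1819 CPM against 529 to 774 CPM, with 3 of 5 lower, and that of 5 endothelial markers 273 to 382 CPM against 188 to 213 CPM, with 5 of 5 lower. Of 4 smooth muscle markers 3 were lower, but the summed level of the 4 overlapped, at 144 to 247 CPM against 135 to 189 CPM. None of 5 adipocyte or 4 Schwann cell markers passed the threshold. The summed level of the adipocyte markers varied widely within each group, from 29.3 to 852 CPM in controls and from 346 to 1482 CPM in knockouts. That of the Schwann cell markers was 56.4 to 142 CPM against 73.9 to 112 CPM. No marker was at 0 counts in all libraries. The part of these shifts in the results was not tested, and in whole muscle fewer cells of a type and less RNA per cell cannot be told apart.

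The 7 genes did not move together. With adjustment over all genes and a threshold of 0.01 on the adjusted p (edgeR's quasi-likelihood test), 2 of the 7 were called higher in knockouts (Timm10 and Timm8a1), 2 were called lower (Timm8b and Timm22), and 3 were not called (Timm9, Timm10b and Timm13). On library totals alone 6 were called higher and 0 lower. Of all genes tested, 23.6% were called higher and 21.1% lower. The CPM ranges of the groups did not overlap for any of the 7, while 53.4% of all genes had no overlap in either direction. The genes had been chosen from this same contrast, so these calls are no independent test of the 7 and nothing is read from them. The median log2 fold change of the 7 was 0.26.

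**Figure D1:**
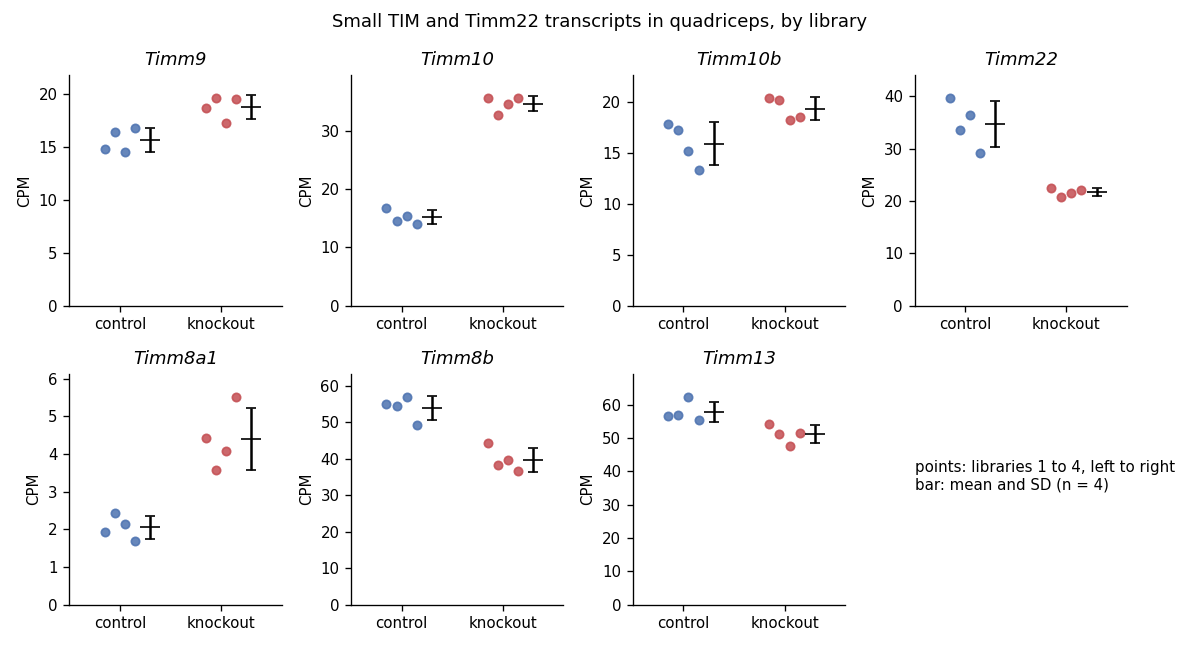
CPM (linear axes from 0) of each of the 7 genes in the 4 control (blue) and 4 knockout (red) libraries, with the mean and SD (n = 4) beside each group. Relative to the controls Timm10 (2.29-fold) and Timm8a1 (2.14-fold) were higher by more than Timm9 and Timm10b were, and Timm22, Timm8b and Timm13 were lower, although on library totals alone Timm22 was level (-0.0014 on the log2 scale) and Timm8b (0.22) and Timm13 (0.49) were higher.

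Timm10 encodes the partner of TIM9 in the chaperone ring for carriers, and lies on chromosome 2 from 84827021 to 84830213 (GRCm38, plus strand, Entrez Gene 30059). It had 207, 221, 215 and 223 counts in control libraries 1 to 4 and 854, 716, 838 and 897 counts in knockout libraries 1 to 4. These were 16.7, 14.5, 15.4 and 14.1 CPM in controls and 35.6, 32.8, 34.6 and 35.7 CPM in knockouts. Every knockout library was at least at 32.8 CPM and no control library was above 16.7 CPM. The mean level was 15.2 ± 1.18 CPM against 34.7 ± 1.34 CPM (SD, n = 4 each), which was 2.29-fold higher in knockouts (log2 fold change 1.20, SE 0.076).

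Timm9, the gene of the other subunit of that ring (chromosome 12, 71123172 to 71136675, minus strand, Entrez Gene 30056), showed a far smaller difference. Its counts were 183, 250, 202 and 266 in controls and 447, 428, 417 and 491 in knockouts, or 14.8, 16.4, 14.5 and 16.8 CPM against 18.6, 19.6, 17.2 and 19.5 CPM. The highest control and the lowest knockout library thus differed by little. The means were 15.6 ± 1.14 CPM and 18.7 ± 1.11 CPM (SD, n = 4 each), with a log2 fold change of 0.26 (SE 0.084). In controls the counts of Timm10 and Timm9 were alike, with a ratio of Timm10 to Timm9 of 1.13, 0.884, 1.06 and 0.838 in the 4 libraries. In knockouts the ratio was 1.91, 1.67, 2.01 and 1.83, which was 1.90-fold higher. A ratio of 2 genes within a library does not depend on how the library is scaled.

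Timm10b encodes the small TIM protein that stays attached to TIM22 (chromosome 7, 105640540 to 105641846, plus strand, Entrez Gene 14356). It had 17.9, 17.3, 15.2 and 13.3 CPM in controls, from 211 to 264 counts, and 20.4, 20.1, 18.2 and 18.5 CPM in knockouts, from 440 to 489 counts. The lowest knockout library was close to the highest control library. The means were 15.9 ± 2.08 CPM and 19.3 ± 1.12 CPM, with a log2 fold change of 0.28 (SE 0.104). Against Timm10, the counts of Timm10b were 1.07, 1.19, 0.986 and 0.946 in controls and 0.573, 0.615, 0.526 and 0.518 in knockouts. Of the 75-base words of its transcripts 15.3% also occurred in other annotated genes (Gm45799, Arfip2 and Gm22504), so some of its reads may have been dropped or assigned elsewhere.

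Timm22 encodes the channel-forming core of the carrier translocase (chromosome 11, 76406925 to 76416313, plus strand, Entrez Gene 56322). Its level was 39.7, 33.5, 36.4 and 29.2 CPM in controls and 22.5, 20.7, 21.5 and 22.1 CPM in knockouts, so that every knockout library was below the lowest control library. The raw counts were 491, 512, 509 and 463 in controls and 540, 453, 521 and 556 in knockouts. The mean level was 34.7 ± 4.46 CPM against 21.7 ± 0.769 CPM (SD, n = 4 each), with a log2 fold change of -0.67 (SE 0.094) that was -0.0014 on library totals alone. With the median of all genes subtracted it was -0.73 on those totals and -0.74 on the TMM scale. This subtraction is itself a scaling, so the 2 values are not independent of each other. The knockout libraries were closer to one another than the control libraries were. The ratio of Timm22 to Timm10 counts, which needs no scaling, was 2.37, 2.32, 2.37 and 2.08 in controls and 0.632, 0.633, 0.622 and 0.620 in knockouts, 3.64-fold lower in the latter. Among the genes of the carrier route, those of the chaperone subunit TIM10 and the channel TIM22 differed in opposite directions on the TMM scale. On library totals alone Timm10 was higher and Timm22 level, and Timm9 (0.93) and Timm10b (0.95) were called higher too.

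Timm8a1 is the mouse counterpart of the gene mutated in deafness-dystonia syndrome, and lies on chromosome X from 134537256 to 134541670 (minus strand, Entrez Gene 30058). It was the least abundant of the 7, with 24, 37, 30 and 27 counts in controls and 106, 78, 99 and 139 counts in knockouts. These were 1.94, 2.42, 2.15 and 1.70 CPM against 4.42, 3.57, 4.09 and 5.52 CPM, with all knockout libraries above all controls. The means were 2.05 ± 0.306 CPM and 4.40 ± 0.827 CPM (SD, n = 4 each), 2.14-fold higher in knockouts (log2 fold change 1.10, SE 0.186). The few counts of the controls limit the precision of this fold. In addition, 39.9% of the 75-base words of its transcript also occurred in another annotated gene (Gm9797), and read pairs that mapped to more than 1 place had been discarded, so its level may be understated in both groups.

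Timm8b encodes the second TIM8 protein (chromosome 9, 50603901 to 50605320, plus strand, Entrez Gene 30057) and was lower on the TMM scale but not on library totals alone, while Timm8a1 was higher on both. It had 682, 831, 796 and 783 counts in controls and 1063, 833, 957 and 922 counts in knockouts, or 55.1, 54.4, 57.0 and 49.3 CPM against 44.3, 38.1, 39.5 and 36.6 CPM. In CPM no knockout library reached the lowest control. The means were 54.0 ± 3.26 CPM and 39.7 ± 3.32 CPM, a log2 fold change of -0.44 (SE 0.078), which turned to 0.22 on library totals alone. Relative to the median of all genes it was -0.51 on those totals and also on the TMM scale, since subtracting that median is itself a scaling. The annotated span of Timm8b overlaps by 81 bases with AU019823 on the opposite strand, a gene with 152 to 425 counts per library and a log2 fold change of 0.41, and the use of strand in counting is not stated.

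Timm13, whose protein partners both TIM8 proteins (chromosome 10, 80899450 to 80900969, minus strand, Entrez Gene 30055), had 56.7, 56.9, 62.4 and 55.5 CPM in controls and 54.3, 51.3, 47.5 and 51.5 CPM in knockouts. The counts were 702 to 881 and 1121 to 1303. The lowest control and the highest knockout library were close. The means were 57.9 ± 3.08 CPM and 51.2 ± 2.80 CPM, a log2 fold change of -0.18 (SE 0.067) that became 0.49 on library totals alone. Per Timm13 count there were 0.0342, 0.0426, 0.0344 and 0.0306 counts of Timm8a1 in controls and 0.0814, 0.0696, 0.0860 and 0.107 in knockouts, 2.42-fold more. Per Timm13 count there were 0.972, 0.956, 0.913 and 0.889 counts of Timm8b in controls and 0.816, 0.743, 0.831 and 0.712 in knockouts. The groups did not overlap in either ratio, and both TIM8 genes moved apart from each other relative to their shared partner.

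**Figure D2:**
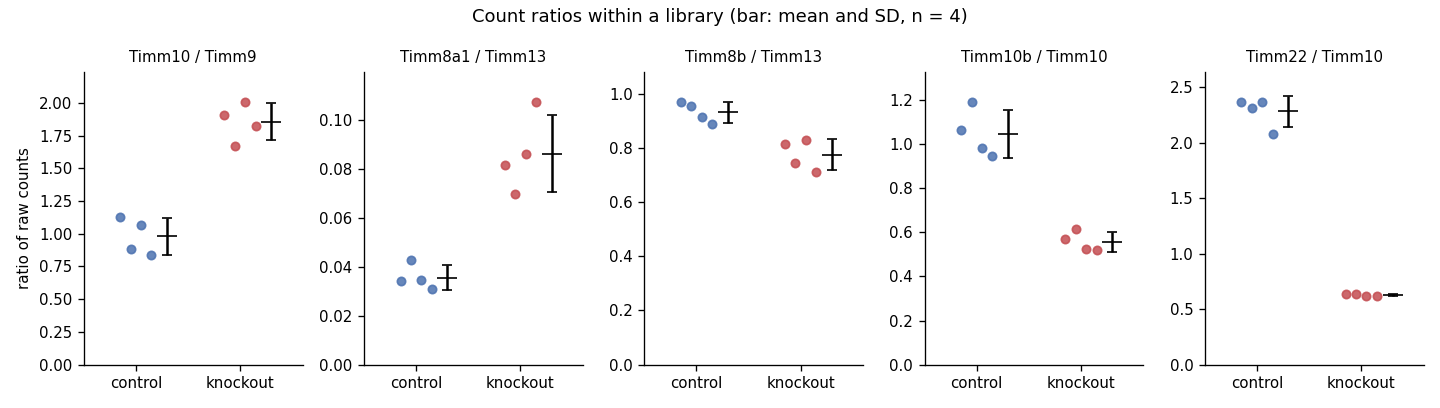
Ratios of raw counts between partner genes within each library (linear axes from 0), with the mean and SD (n = 4) of the control (blue) and knockout (red) libraries. The groups were separate in all 5 ratios, and the Timm22 to Timm10 ratio had the narrowest knockout group (0.620 to 0.633).

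Levels of different genes were compared per kilobase of exon. In control muscle Timm8b was the most abundant at 102 ± 6.19 CPM per kb, with 4.03% of all genes above it, followed by Timm13 at 47.2 ± 2.51, Timm10 at 22.8 ± 1.78, Timm10b at 15.9 ± 2.09, Timm9 at 14.0 ± 1.02, Timm22 at 11.4 ± 1.46 and Timm8a1 at 1.67 ± 0.250 CPM per kb (SD, n = 4). The ranges of Timm10b and Timm9 overlapped, as did those of Timm9 and Timm22, so their order is not set by these libraries. In knockout muscle Timm8b was still first at 75.2 ± 6.31 CPM per kb, and Timm10 at 52.0 ± 2.01 came before Timm13 at 41.8 ± 2.28. Then followed Timm10b at 19.3 ± 1.12, Timm9 at 16.8 ± 0.992, Timm22 at 7.11 ± 0.252 and Timm8a1 at 3.59 ± 0.674 CPM per kb, with no overlap between neighbours. The share of all genes with a higher level per kb than Timm10 was 16.8% in controls and 7.24% in knockouts, and for Timm22 it was 28.9% and 39.2%. Both orders were the same with the deposited FPKM values.

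**Figure D3:**
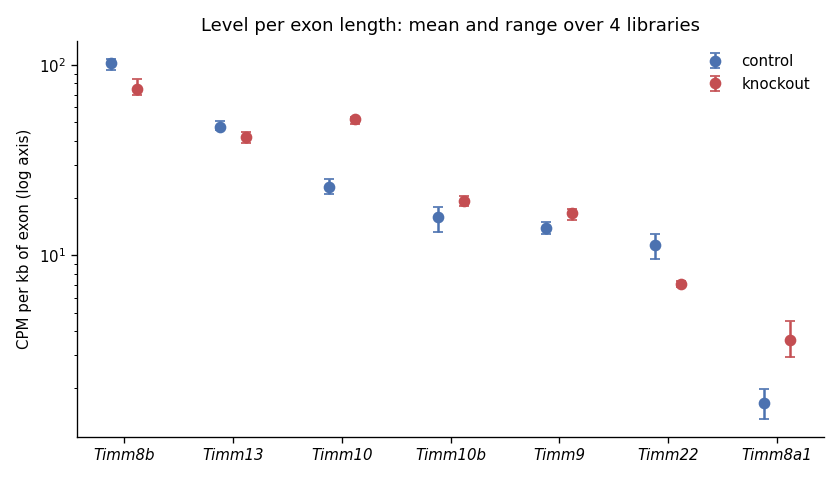
Level per exon length (CPM per kb, log axis) of the 7 genes in control (blue) and knockout (red) muscle, ordered by the control level, as the mean and the range over 4 libraries. Timm10 passed Timm13 in knockouts, while Timm8b stayed first and Timm8a1 last.

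The summed level of the 6 small TIM genes was 204 ± 9.85 CPM per kb in controls (190 to 212) and 209 ± 9.33 on the same TMM scale in knockouts (203 to 223), and the ranges overlapped. On library totals alone all 6 had a positive log2 fold change, from 0.22 (Timm8b) to 1.86 (Timm10). The likeness of the sums thus belongs to the TMM scale. The make-up of the summed level differed. Timm8b made up 50.2 ± 0.674% of it in controls and 36.0 ± 1.75% in knockouts, and the share of Timm13 averaged 23.2 ± 0.915% in the former and was 19.1 to 20.5% in the latter. Timm10 made up 11.2 ± 0.625% and 24.9 ± 1.04% (SD, n = 4 each). The shares of Timm10b were 7.80% and 9.27%, those of Timm9 6.87% and 8.05%, and those of Timm8a1 0.819% and 1.72%. These shares do not depend on the scaling of the libraries.

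**Figure D4:**
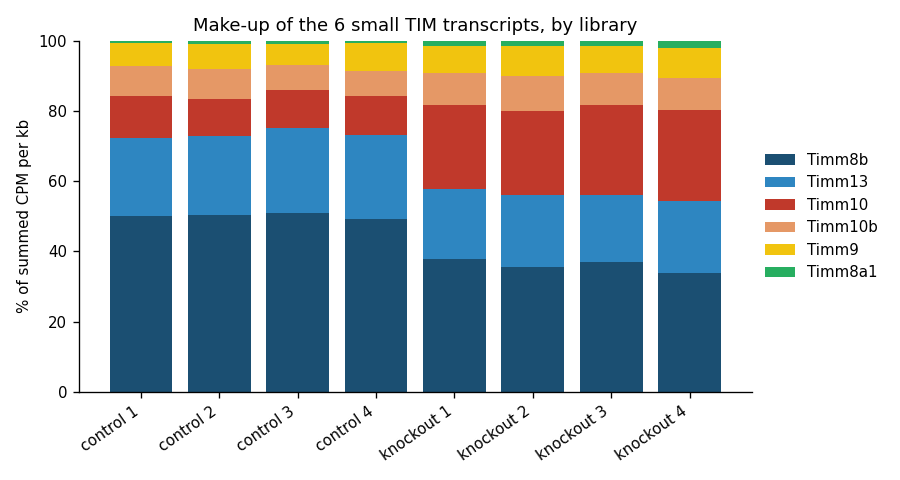
Share (%) of each small TIM gene in the summed CPM per kb of the 6 genes, as a stacked bar for each of the 8 libraries. The mean Timm10 share was 11.2% in controls and 24.9% in knockouts, and the Timm8b share was 49.3 to 51.0% and 33.8 to 37.8%.

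The genes whose log2 CPM ran most alike with that of Timm10 over the 8 libraries were Rpl18 and Rpl41, which encode ribosomal proteins, and Ssu72, a phosphatase of RNA polymerase II, each with a Pearson r of 0.999 among 11047 genes compared. For Timm8a1 they were Slc38a7, an amino acid transporter of the lysosome (0.992), Qtrt1, a tRNA-modifying enzyme (0.990), and Derl2, a component of endoplasmic reticulum protein disposal (0.990). The libraries fall into 2 groups and share their scaling, and 2178 genes had an r above 0.9 with Timm10 and 1475 with Timm8a1, so these values describe a difference between groups that many genes had.

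The lists of the other genes of the import routes, like the 7, were chosen with earlier results of these data known. Their genes were tested over all genes with edgeR's quasi-likelihood test and Benjamini-Hochberg adjustment. The calls and p-values describe this contrast and are no independent test. Of 72 such genes 13 rose, 18 fell and 41 did not pass the threshold, with a median log2 fold change of -0.011, against 0.065 over all genes. Of all genes 23.6% were called higher and 21.1% lower. On library totals alone 47 were called higher and 6 lower. Directions in the next paragraphs are on the TMM scale.

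The partners of TIM22 differed from each other. Timm29, which encodes a subunit of the translocase in animals (listed under its older symbol 1810026J23Rik), had 106.6, 102.3, 109.1 and 103.8 CPM in controls and 56.5, 49.6, 58.7 and 52.0 CPM in knockouts. It fell by 0.96 on the log2 scale (SE 0.070, edgeR adjusted p = 2.4e-06), and the groups did not overlap. Agk, whose protein is both a lipid kinase and a TIM22 subunit, had a mean of 6.62 CPM in controls and 8.09 CPM in knockouts (log2 fold change 0.29, SE 0.10, edgeR adjusted p = 0.036) and did not pass. Thus the genes of the channel and of 1 of its 2 partners were lower on the TMM scale (Timm22 not on library totals alone) in the muscle in which Timm10 was higher.

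Of the 4 genes for the oxidation and turnover of small TIM proteins, 1 rose and none fell. Chchd4, which encodes the receptor and oxidase of the disulfide relay, had a mean of 23.2 CPM in controls and 32.9 CPM in knockouts (log2 fold change 0.51, SE 0.088, edgeR adjusted p = 6.8e-04). Gfer, the sulfhydryl oxidase that recharges it, had a log2 fold change of 0.38 (edgeR adjusted p = 0.011), and passed the threshold when control library 1 was left out, which made the count 2, as did upper-quartile factors and robust dispersion. On library totals alone all 4 were called higher. Aifm1, which anchors CHCHD4, was at -0.18, and Yme1l1, the protease that degrades small TIM proteins, was at 0.015.

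The TOM complex is the entry gate of the outer membrane that precursors pass before they meet the small TIM proteins. Of its 7 genes 3 rose and none fell, with a median log2 fold change of 0.13. Tomm20, the receptor for presequences, rose by 0.56 (edgeR adjusted p = 2.8e-05), Tomm40, the pore, by 0.52 (edgeR adjusted p = 8.4e-05) and Tomm22, the central receptor, by 0.47 (edgeR adjusted p = 1.6e-04). Tomm70a, the receptor that takes up carrier precursors, was at 0.12 and did not pass. The TIM23 translocase serves precursors with a presequence, and is itself inserted by TIM22. Of its 7 genes 2 fell and none rose, with a median of -0.23. Timm23, the channel, fell by 0.38 (edgeR adjusted p = 0.0019) and Timm17b by 0.29 (edgeR adjusted p = 0.0075). On library totals alone all 7 genes of TOM and all 7 of TIM23 were called higher. The count of 2 for TIM23 dropped to 1 without control library 1, 2 or 3 or without knockout library 2 or 4 and to 1 with the replicate number as a block, and was 4 with DESeq2 and with RLE size factors.

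The clients of the 2 chaperone rings include the carriers of the inner membrane and the β-barrel proteins of the outer membrane. A list of 46 carrier genes was made by name (every Slc25a gene of the table, the uncoupling proteins, Mtch1 and Mtch2). Not all of their proteins lie in the inner membrane or are known clients, so the counts describe the gene list. Of the 46, 8 rose, 13 fell and 25 did not pass, against 23.6% called higher and 21.1% lower over all genes. The median of the 46 was -0.067. The balance turned on library totals alone, with 24 called higher and 4 lower. Ucp3, an uncoupling protein of muscle, had a mean of 399 CPM in controls and 46.1 CPM in knockouts (log2 fold change -3.11, edgeR adjusted p = 7.2e-05). Slc25a25, a calcium-regulated ATP-Mg/phosphate carrier, had a mean of 145 CPM and 27.8 CPM (log2 fold change -2.39, edgeR adjusted p = 1.1e-04), and its relative Slc25a24 was at 5.64 CPM and 19.6 CPM (log2 fold change 1.79, edgeR adjusted p = 2.0e-05). Slc25a18, a glutamate carrier, rose by 2.30 (edgeR adjusted p = 0.0025) from 1 to 3 counts per control library.

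Further carriers were picked after their values were seen, as the best known clients of the 2 rings. Slc25a4, the ADP/ATP carrier of muscle, fell from a mean of 3962 CPM to 1446 CPM (log2 fold change -1.45, edgeR adjusted p = 2.4e-06), while Slc25a5, the gene of another ADP/ATP carrier, rose from 41.6 CPM to 133 CPM (log2 fold change 1.68, edgeR adjusted p = 1.3e-06). Slc25a3, the phosphate carrier, fell from 853 CPM to 603 CPM (log2 fold change -0.50, edgeR adjusted p = 3.3e-04). Slc25a12, the aspartate-glutamate carrier of muscle, fell from 514 CPM to 333 CPM (log2 fold change -0.62, edgeR adjusted p = 3.4e-04). Its relative Slc25a13 rose from 0.543 CPM to 1.21 CPM (log2 fold change 1.13, edgeR adjusted p = 0.0062), from only 5 to 12 counts per control library. Of 6 genes of the β-barrel list, Mtx2, a metaxin of the outer membrane that takes part in sorting, rose by 0.81 (edgeR adjusted p = 2.3e-05). The channel genes Vdac1, which fell by 0.98 (edgeR adjusted p = 2.7e-05), and Vdac2, which fell by 0.42 (edgeR adjusted p = 0.0020), were lower, and Samm50, Mtx1 and Vdac3 did not pass. With library totals alone 4 of the 6 were called higher and 1 lower.

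**Figure D5:**
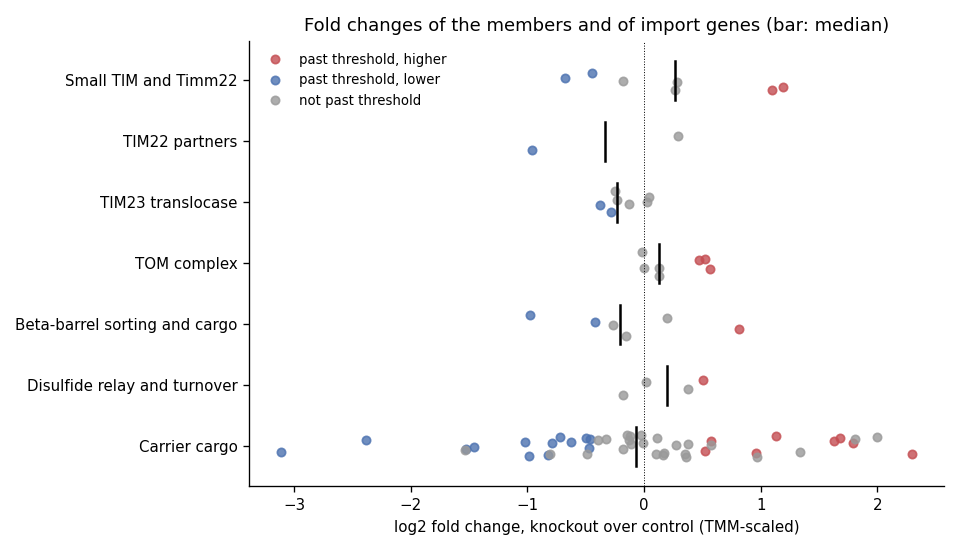
Log2 fold change (knockout over control, TMM-scaled) of the 7 genes and of the genes of 6 import lists, each point a gene, coloured by whether it passed an adjusted p of 0.01 in edgeR, with a bar at the median of each list. The 7 genes lay between -0.67 and 1.20, and the carriers between -3.11 and 2.30.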

How the data were processed

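The raw counts per gene were made and deposited by the authors from poly(A)-selected RNA of QF muscle, with bcl2fastq 2.20.0.422, cutadapt, STAR 2.5.4b on GRCm38 (submitters' processing notes) and counting of read pairs on exons. They excluded duplicate, chimeric and multimapping pairs, pairs with a mapping score under 10 and genes with a summed count under 50. The annotation release and the use of strand are not given in the sources used here. The FPKM values, also deposited by the authors, were used only to check the order of levels. The authors' fold changes and p-values (DESeq2 1.32.0) were not used.

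The counts of all 14012 genes were tested with R 4.3.3 and edgeR 4.0.16 (limma 3.58.1), by a quasi-likelihood fit (glmQLFit, glmQLFTest) of the group label on libraries scaled by TMM, with Benjamini-Hochberg adjustment and a threshold of 0.01. The procedure had been run on simulated data with balanced changes in a small part of the genes. Those data had no shift in RNA composition between the groups, so they do not test the choice of scale. The SE is the log2 fold change over the square root of F. Levels are CPM on TMM-scaled library sizes, per kb of the deposited exon width. Coding sequences were read from GENCODE transcripts on GRCm38, promoters from RefSeq. The 7 genes and all lists were chosen with earlier results of these data known. Named were the 7 genes, both TIM22 partners, up to 2 genes past the threshold at either end of each list and the 3 genes most like Timm10 and Timm8a1 (mean count of at least 50, prior count 2). Tomm22, Tomm70a, Gfer, Aifm1, Yme1l1, Samm50, Mtx1, Vdac3 and the further carriers were named after their values were seen. Alternatives were other scalings, a low-count filter, DESeq2 1.42.0, a threshold of 0.05, robust dispersion, a replicate block, leaving out each library, and 0.5 added to the counts in ratios.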

Additional observations from a re-analysis of the deposited data

How the results depend on the processing

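On library totals alone Timm8b was at a log2 fold change of 0.22 and Timm13 at 0.49, both reversed, Timm22 at -0.0014 was no longer called, and Timm9 at 0.93 and Timm10b at 0.95 were called. This made 6 of the 7 genes higher and 0 lower, and 47 of the 72 import genes higher and 6 lower. The median of all genes moved to 0.73 with that setting. At an adjusted p under 0.05 the unchanged values of Timm9 (0.26), Timm10b (0.28) and Timm13 (-0.18) passed, with 4 of the 7 genes and 20 import genes higher, and with DESeq2 Timm13 passed at -0.22. With each library left out in turn, Timm10 lay between 1.16 and 1.24, Timm8a1 between 0.95 and 1.19, Timm8b between -0.51 and -0.42 and Timm22 between -0.75 and -0.60.

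Deviations from the group mean had an r of 0.213, 0.0351, 0.512 and 0.163 between same-numbered libraries, all positive. Knockout libraries 1, 3 and 4 were each closest to the control of the same number. Knockout library 2 was closest to control library 4 (0.152), and control library 2 to knockout library 1 (0.164). The labels do not call the numbers pairs, so the main fit did not use them. An effect shared by number was not tested beyond the replicate block. With the replicate block Timm10 was at 1.20, 2 of the 7 genes were higher and 2 lower, and 14 import genes were higher and 19 lower, 1 of the latter in the TIM23 list. Depth limits Timm8a1 most, with 24 counts in the lowest library.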

Other observations

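The RefSeq promoters of the 7 genes (8 promoters of 300 bases, 250 before and 50 after the start, matched by symbol) were searched on both strands for 4 sets of letters. TGATGNAA, the composite site of ATF4 and C/EBP, was in none of the 8, and in 3.97% of 32851 promoters. GCGCANGCG, letters of the NRF1 site, were in those of Timm8b and Timm13 and in 6.25% of all, and CCGGAAGT, letters of the ETS and GABP site, were in those of Timm10 and Timm10b and in 3.89% of all. CCAAT was in none of the 8 and in 37.4% of all. These are matches of letters in a short window and say nothing about binding.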
